A study of Mus musculus with 8 samples.

Results

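The genes described here encode carriers that move amino acids, sugars, lactate and related small molecules across the plasma membrane or the lysosomal membrane. They were measured on arrays of total RNA from NMuMG cells, a mouse mammary epithelial line. Members were taken by name, as the genes whose symbol places them in the Slc1, Slc2, Slc3, Slc5, Slc6, Slc7, Slc16, Slc36, Slc38 or Slc43 families. This gave 103 of the 19937 genes with a probeset of their own, from 106 probesets. Of the 103, 3 are only named after a carrier (Slc2a4rg-ps, Slc6a19os and Slc7a6os), and none of these 3 passed in any comparison.

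The cells carried 1 of 2 stably transfected vectors, a control vector or a vector with major satellite sequences, the tandem repeat of mouse pericentromeric heterochromatin. Either line was left untreated (0 h) or given TGFbeta for 8 h, and the resulting 4 groups had 2 arrays apiece, 8 in all. All 4 groups are therefore transfected NMuMG cells, and an untransfected group was not analysed here. The sources used here do not give the dose of TGFbeta, or whether a line was 1 clone or a pool. Nor do the labels say that the 2 arrays of a group came from separate cultures, so the p-values measure the spread between these arrays, which may be technical. The code in the array titles gives each array replicate number 1 or 2, and 1 array of every group has each number.

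Amino acid carriers fall into a few working types. Heteromeric carriers pair a heavy chain (Slc3a1 or Slc3a2) with a light chain of the Slc7 family. The heavy chain brings the pair to the membrane and the light chain does the transport. Many carriers of the Slc1, Slc6 and Slc38 families run on the sodium gradient, whereas Slc1a4 and Slc1a5 are exchangers of neutral amino acids. Facilitative hexose carriers (Slc2) let glucose or fructose run down their gradient, and monocarboxylate carriers (Slc16) move lactate, pyruvate and, in some members, aromatic amino acids or creatine. In epithelial cells several of these genes are known targets of the amino acid response, in which the transcription factor Atf4 raises uptake and synthesis of amino acids when they run short.

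Promoter sequence is shown for 4 members that fell and whose windows hold 1 of the motifs searched. The windows are the 250 bases before the gene's start in RefSeq (build GRCm38.p6), written along the gene's strand. Capitals mark matches to the 4 motifs searched on both strands, namely GATGCAA (core of the amino acid response element), CACGTG (E-box), TGANTCA (AP-1) and CAGACAG (Smad). The first window is that of Slc7a11, the cystine carrier, at chr3:50443614-50443863 on the minus strand. The second is Slc16a1, a lactate carrier, at chr3:104638414-104638663 on the plus strand. The third is Slc16a12, a creatine carrier, at chr19:34747329-34747578 on the minus strand. The last is Slc7a1, the arginine and lysine carrier, at chr5:148399905-148400154 on the minus strand, before the most 5' of its 2 starts in the table. These 4 windows were picked after the matches were seen.
Slc7a11: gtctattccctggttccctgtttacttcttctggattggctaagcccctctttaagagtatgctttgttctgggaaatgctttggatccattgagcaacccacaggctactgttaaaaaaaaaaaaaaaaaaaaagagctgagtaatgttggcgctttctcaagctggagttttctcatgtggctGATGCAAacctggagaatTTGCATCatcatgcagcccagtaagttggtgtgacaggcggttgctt
Slc16a1: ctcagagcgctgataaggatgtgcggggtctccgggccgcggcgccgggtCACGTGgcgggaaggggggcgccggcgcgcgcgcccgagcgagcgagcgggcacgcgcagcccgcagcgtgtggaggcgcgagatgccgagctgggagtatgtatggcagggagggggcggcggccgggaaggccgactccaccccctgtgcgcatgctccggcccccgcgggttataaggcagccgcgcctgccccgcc
Slc16a12: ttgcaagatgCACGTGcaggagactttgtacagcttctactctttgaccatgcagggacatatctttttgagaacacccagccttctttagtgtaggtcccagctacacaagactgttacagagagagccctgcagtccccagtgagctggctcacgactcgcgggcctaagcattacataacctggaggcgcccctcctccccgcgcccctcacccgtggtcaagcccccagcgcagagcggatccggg
Slc7a1: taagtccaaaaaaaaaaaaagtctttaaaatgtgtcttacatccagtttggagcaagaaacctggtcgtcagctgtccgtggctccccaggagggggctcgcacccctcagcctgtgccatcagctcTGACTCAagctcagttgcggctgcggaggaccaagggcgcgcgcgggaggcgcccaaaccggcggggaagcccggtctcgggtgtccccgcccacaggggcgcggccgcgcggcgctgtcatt

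The Slc7a11 window holds GATGCAA on each strand, with the matches beginning 65 and 47 bases before the start. Of the 32851 promoter windows in the table, 2.19% hold that motif. Counted by gene, 2.51% of the 27025 genes with a window hold it, and 2.63% of the 76 members with a window. Of the 24 members that passed in either line, 19 had a window (Slc1a5, Slc2a4, Slc6a8, Slc7a5 and Slc16a6 had none), and GATGCAA was found for Slc7a11, which fell, and Slc7a7, which rose. Of the 13 members with a window that fell in either line, 1 holds it. CACGTG, held by 6.86% of genes and 15.8% of the 76 members, was found among the 19 for Slc16a1, Slc16a12 and Slc38a7. TGANTCA, held by 7.82% of genes and 13.2% of the 76 members, was found for Slc7a1, Slc2a9 and Slc38a7. CAGACAG, held by 7.16% and 7.89%, was found for Slc6a19 and Slc2a5. The motifs are thus also held by members that did not pass. A match is a description of the letters and not of binding.

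Values are the deposited log2 expression values of a gene's probeset, and 1 unit is a 2-fold change. Such values can be compared between arrays for 1 gene, not between genes. Marker lists were set beside the median of all genes as a rough description, which does not establish cell identity because probes differ in brightness. Of 15 epithelial markers, 11 lay above the median level of all genes (8.19), among them Cdh1 and the keratins Krt8 and Krt18, whereas 0 of 8 endothelial, 0 of 5 adipocyte, 1 of 9 immune (Cd68), 3 of 11 fibroblast (the collagens Col1a1, Col1a2 and Col3a1) and 1 of 10 basal markers (Mylk) did. Epcam, Cldn7, Grhl2 and Esrp1 were the epithelial markers at or below it. Array medians over all probesets ran from 7.72 to 7.76 for replicate number 1 and from 7.88 to 7.92 for number 2. Over the genes tested they ran from 8.19 to 8.23 for number 1 and from 8.14 to 8.15 for number 2. Arrays of the same replicate number shared their deviations from the group means (r = 0.758 to 0.874 across genes, which are not independent replicates). Arrays were paired by that number, and a test with it in the model is called paired and a test without it unpaired. Differences between groups of 2 arrays are given ± the standard error of the paired test. That error is estimated over all 8 arrays after the shift between replicate numbers is removed, and is not the spread within a group. P was adjusted by Benjamini-Hochberg over all 19937 genes, and passing means an adjusted p below 0.05.

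The first comparison asked which carriers changed within 8 h of TGFbeta in control vector cells. Falls were led by Slc16a12, Slc16a10, Slc1a5, Slc7a11, Slc6a19, Slc5a3 and Slc7a1, each lower by 0.68 to 1.32 on the log2 scale. Rises were led by the creatine carrier gene Slc6a8 at 0.96. In the paired limma test 6 of 103 members rose and 15 fell, and the background over all genes was 6.92% rising and 7.63% falling. The members' shares were 5.83% and 14.6%. The median change was 0.00 over the members and 0.01 over all genes. In the unpaired test 1 member passed, Slc6a8, and the background was 0.707% of genes rising and 0.366% falling, 1.07% in either direction (14.6% paired). A paired fall of at least 2-fold was found for 1 member, Slc16a12, and a rise of that size for 0, where 0.963% and 1.16% of all genes had them. Leaving out 1 array of the control vector line moved the paired count from 21 to 7 (without the untreated array of number 2), 8 (without the treated array of number 2), 13 (without the treated array of number 1) or 14 (without the untreated array of number 1).

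In major satellite cells the same question gave 5 rises and 15 falls in the paired test, with a background of 6.89% rising and 8.38% falling over all genes. The members' shares were 4.85% and 14.6%, and their median change was 0.03, as was that of all genes. Falls were again led by Slc16a12 (-1.49), Slc6a19 (-1.15), Slc16a10 (-1.09), Slc7a11 (-1.01) and Slc1a5 (-0.98), and rises by Slc6a8 (0.95). Slc6a8 was also the 1 member that passed unpaired, where the background was 0.682% rising and 0.411% falling, 1.09% in either direction (15.3% paired). Slc16a12, Slc6a19, Slc16a10 and Slc7a11 fell by at least 2-fold and 0 members rose by as much, against 1.09% and 1.04% of all genes. Leaving out 1 array of the major satellite line moved the paired count from 20 to 8 (without the untreated array of number 2), 11 (without the treated array of number 2), 13 (without the untreated array of number 1) or 20 (without the treated array of number 1).

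The lines share no arrays, although they share the replicate numbers and, in the model, each gene's estimate of the spread. Each line had 15 falls, and 14 were common to both, which is 93.3% of each list. Slc2a2 passed in the control vector line alone and Slc2a9 in the major satellite line alone. Of the rises, 3 were common to both (50% and 60% of the lists), Slc6a8, Slc2a5 and Slc38a7. The overlap of the lines was not computed over all genes, so these shares are not shown to be particular to the carriers. In all, 24 members passed in at least 1 line, and 5 more passed when both lines were averaged (Slc16a9, Slc2a8, Slc38a10 and Slc43a2 higher, Slc3a1 lower). The averaged response had 12 rises and 17 falls among the members, against 11.2% and 13.1% of all genes (24.3% in either direction). Unpaired, 6 members passed in the average, against 2.57% of genes rising and 2.25% falling, 4.83% in all. The other 74 members passed in none of these tests.

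**Figure D1:**
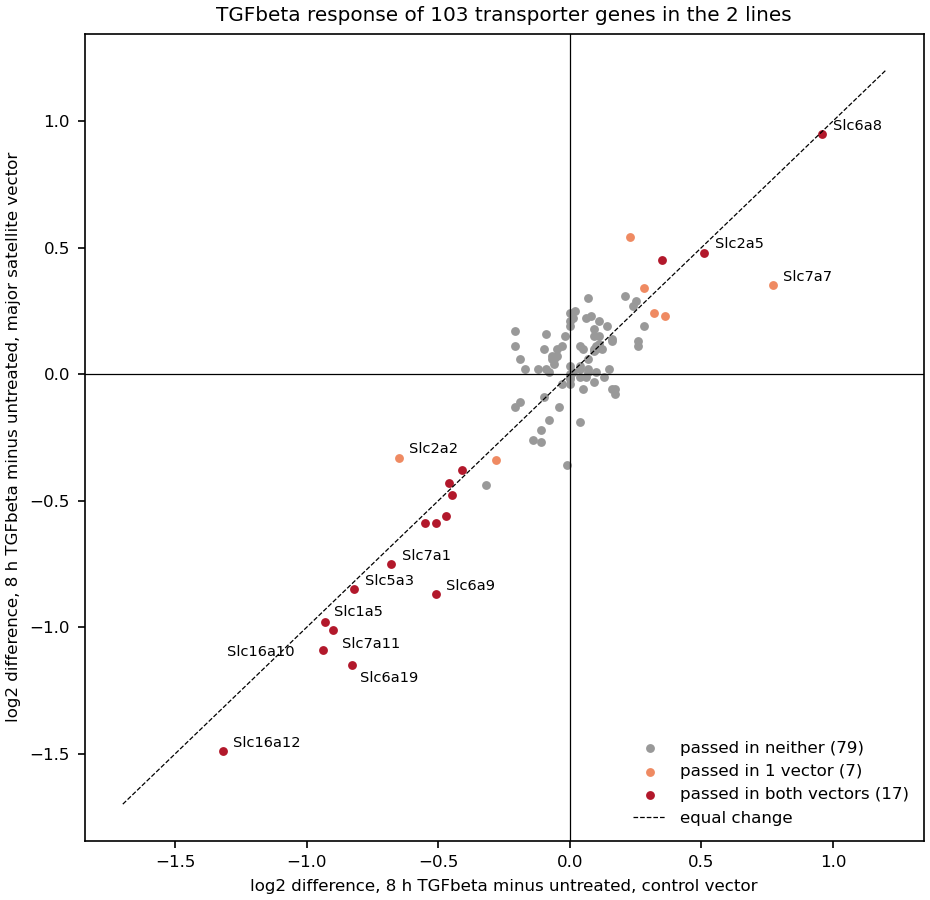
Log2 difference between 8 h of TGFbeta and untreated for each of the 103 carrier genes (1 point each), in control vector cells on the x axis and major satellite cells on the y axis, coloured by the number of lines in which the gene passed. The 17 genes that passed in both lines lie left of and below 0 or right of and above 0 in both, along the dashed line of equal change, with Slc16a12 at -1.32 and -1.49 at the lower left and Slc6a8 at 0.96 and 0.95 at the upper right.

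Passing was more frequent above the median level among all genes (24.1% against 4.97% in control vector cells, 24.2% against 6.33% in major satellite cells), so the members are given on either side of it. Of the members, 32 lay above the median level of all genes and 71 at or below it. Among the 32, 13 (40.6%) fell and 4 (12.5%) rose in control vector cells, where 12.7% and 11.4% of all genes above that level did. In major satellite cells 13 fell and 3 rose, against 13.8% and 10.4% of genes above that level. Among the 71 dimmer members, 2 fell and 2 rose in each line, 2.82% each way, which is near the shares of all genes at or below that level (2.52% falling and 2.45% rising in control vector cells, 2.96% and 3.37% in major satellite cells). The dimmer members that fell were Slc6a19 and Slc16a6, in both lines. Those that rose were Slc2a5 in both lines, Slc2a4 in control vector cells and Slc16a14 in major satellite cells. The shares in this paragraph describe the members and were not tested.

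Slc7a11 encodes the light chain that exchanges glutamate for cystine, the source of cysteine for glutathione. Its values in control vector cells were 9.04 and 10.32 untreated and 8.48 and 9.07 with TGFbeta (numbers 1 and 2). In major satellite cells they were 8.77 and 10.18 untreated and 7.88 and 9.05 treated. The untreated and treated arrays overlapped in both lines, because number 2 was higher than number 1 throughout, and the treated array was lower within each number. The gene fell by 0.90 ± 0.17 in control vector cells (adjusted p = 0.00682, unpaired 0.967) and by 1.01 ± 0.17 in major satellite cells (adjusted p = 0.00388, unpaired 0.823). Without the untreated control vector array of number 2 it did not pass in control vector cells (adjusted p = 0.0876), nor in major satellite cells without their untreated array of number 2 (adjusted p = 0.0521).

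Slc7a5, the light chain for large neutral amino acids such as leucine, read 12.35 and 12.15 untreated and 12.02 and 11.56 treated in control vector cells, and 12.44 and 12.24 untreated and 12.21 and 11.60 treated in major satellite cells. The groups did not overlap in either line. It fell by 0.46 ± 0.12 (adjusted p = 0.0267, unpaired 0.764) and by 0.43 ± 0.12 (adjusted p = 0.0352, unpaired 0.76). Slc3a2, the heavy chain that both of these light chains need, read 13.65 and 13.62 untreated and 13.57 and 13.53 treated in control vector cells, and 13.66 and 13.61 untreated and 13.49 and 13.42 treated in major satellite cells. Its treated arrays were lower in both lines by less than 0.2 and did not pass, with differences of -0.08 (95% interval -0.26 to 0.10, adjusted p = 0.612) and -0.18 (-0.36 to 0.00, adjusted p = 0.176). The other heavy chain, Slc3a1, which serves cystine uptake in kidney, differed by -0.32 and -0.44 and passed in the average of the lines (adjusted p = 0.0391, unpaired 0.287). Among the 10 light chains, the exchangers for cationic and neutral amino acids Slc7a7 and Slc7a6 rose in control vector cells by 0.77 ± 0.18 (adjusted p = 0.0174, unpaired 0.393) and 0.36 ± 0.09 (adjusted p = 0.0253, unpaired 0.276). In major satellite cells they differed by 0.35 and 0.23 and did not pass (adjusted p = 0.232 and 0.122). The Slc7a7 difference there was 0.68 within number 1 and 0.01 within number 2.

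Slc7a1, the main carrier of arginine and lysine, read 11.20 and 10.99 untreated and 10.54 and 10.28 treated in control vector cells, and 11.24 and 11.08 untreated and 10.55 and 10.27 treated in major satellite cells. Treated and untreated arrays did not overlap. It fell by 0.68 ± 0.08 (adjusted p = 0.000712, unpaired 0.159) and by 0.75 ± 0.08 (adjusted p = 0.000476, unpaired 0.122), and it passed in both lines whichever array was left out. The other 4 cationic or related members (Slc7a2, Slc7a3, Slc7a4 and Slc7a14) did not pass, with differences from -0.06 to 0.16 in control vector cells.

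Slc1a5, a sodium-dependent exchanger that takes up glutamine, read 11.18 and 10.83 untreated and 10.46 and 9.68 treated in control vector cells. In major satellite cells it read 11.43 and 11.03 untreated and 10.64 and 9.85 treated. Every treated array lay below every untreated array of its line. Slc1a5 fell by 0.93 ± 0.13 (adjusted p = 0.00126, unpaired 0.45) and by 0.98 ± 0.13 (adjusted p = 0.000932, unpaired 0.397), and it passed whichever array was left out. Its relative Slc1a4, which carries serine and alanine, fell by 0.47 ± 0.10 (adjusted p = 0.0108, unpaired 0.321) and 0.56 ± 0.10 (adjusted p = 0.00459, unpaired 0.207). The 5 glutamate carriers of the same family, known from brain, kidney and retina, did not pass, with differences from -0.02 to 0.14 and from -0.02 to 0.19.

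Among the other amino acid carriers, Slc6a19, a neutral amino acid carrier of kidney and gut, read 7.55 and 7.44 untreated and 7.0 and 6.33 treated in control vector cells, and 7.78 and 7.92 untreated and 6.97 and 6.43 treated in major satellite cells. The groups did not overlap, and the fall was 0.83 ± 0.17 (adjusted p = 0.0115, unpaired 0.307) and 1.15 ± 0.17 (adjusted p = 0.00225, unpaired 0.135). Its mean over the 8 arrays was below the median of all genes, and its gene overlaps Slc6a19os in the annotation. Slc6a9, the glycine carrier, fell by 0.51 ± 0.12 (adjusted p = 0.0183, unpaired 0.261) and 0.87 ± 0.12 (adjusted p = 0.00121, unpaired 0.0639), and the proline and tryptophan carrier gene Slc36a4 by 0.51 ± 0.11 and 0.59 ± 0.11 (unpaired adjusted p = 0.813 and 0.636). In the Slc38 family of sodium-coupled neutral amino acid carriers, 0 of 11 members fell in either line in the paired limma test and 1 rose (9.09%). Of all genes 6.92% and 6.89% rose and 7.63% and 8.38% fell. At an unadjusted p under 0.05 the family had 2 and 4 members, where all genes had 5057 and 5696 of 19937. Unpaired, the family had 1 and 1 there, where all genes had 1863 and 1937. Slc38a2, its widely expressed member and a known target of the amino acid response, read 13.34 and 13.72 untreated and 13.46 and 13.78 treated in control vector cells, and 13.36 and 13.72 untreated and 13.46 and 13.57 treated in major satellite cells. The groups overlapped, and the differences were 0.09 (95% interval -0.13 to 0.30) and -0.03 (-0.24 to 0.19). Slc38a7, a lysosomal glutamine carrier, rose by 0.35 ± 0.10 (adjusted p = 0.0389, unpaired 0.49) and 0.45 ± 0.10 (adjusted p = 0.0134, unpaired 0.29). Slc38a9, which reports lysosomal arginine to mTORC1, differed by -0.01 and -0.36 and did not pass (adjusted p = 0.978 and 0.0542), and it passed in major satellite cells once arrays were centred on their medians.

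**Figure D2:**
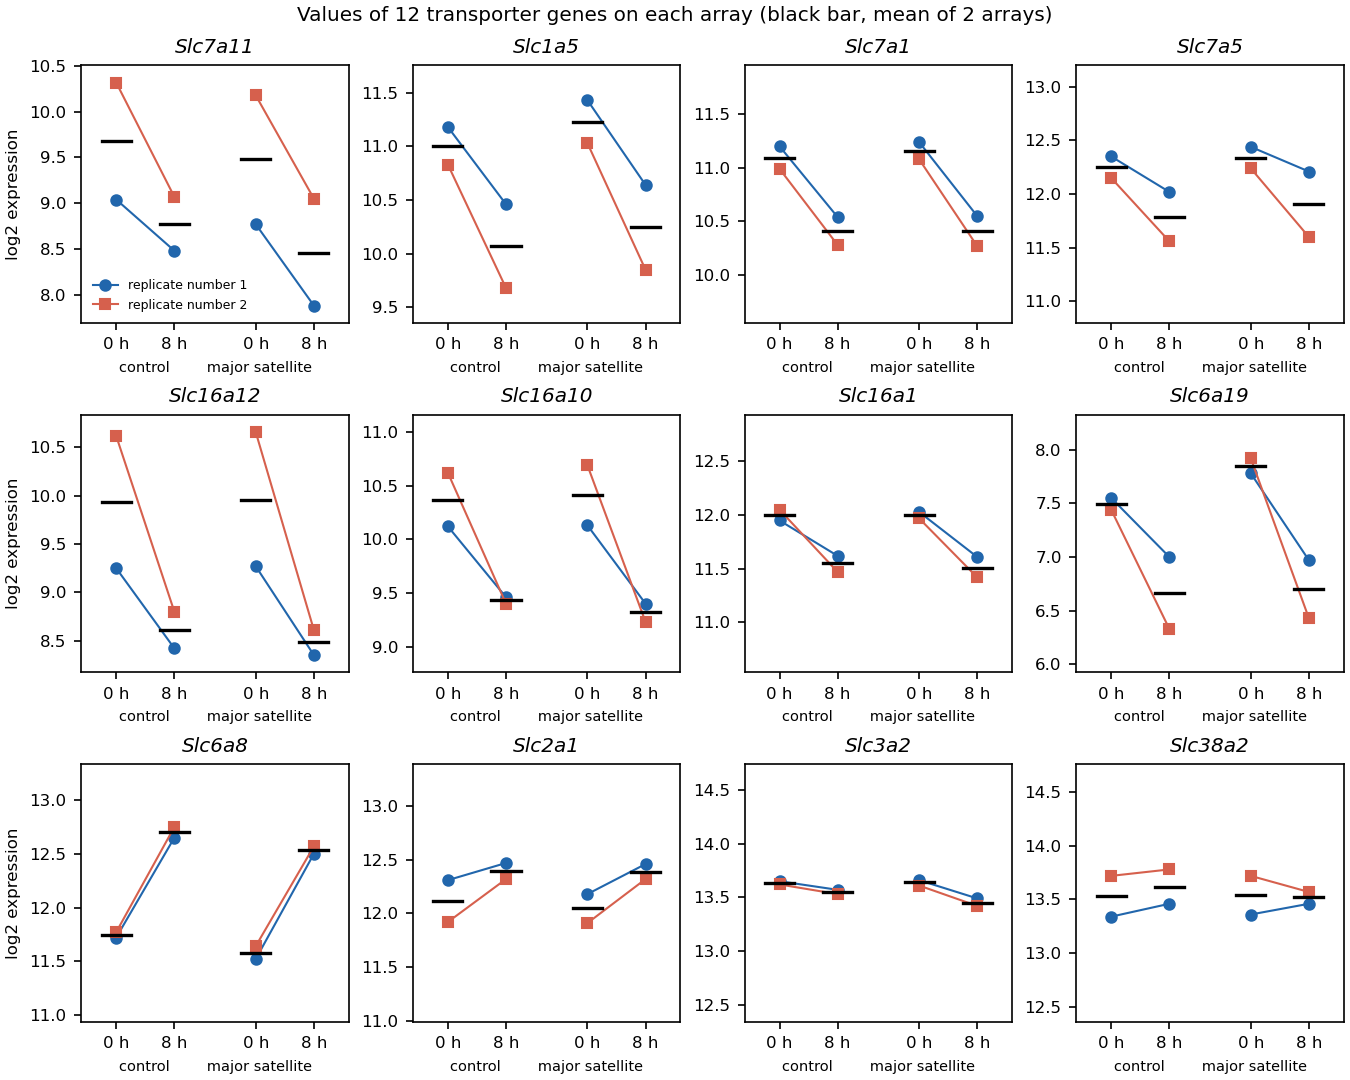
Log2 expression of 12 carrier genes on each of the 8 arrays, with untreated (0 h) and TGFbeta (8 h) arrays of 1 replicate number joined by a line (circles, number 1; squares, number 2) and the mean of 2 arrays as a black bar. In the panels of Slc7a11 and Slc16a12 the numbers stand apart (untreated control vector arrays at 9.04 and 10.32, and at 9.25 and 10.62), whereas in the Slc6a8 panel they coincide and rise together.

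The 13 members of the Slc16 family had 4 falls in each line (30.8%, where 7.63% and 8.38% of all genes fell), and a rise of Slc16a14 in major satellite cells (7.69%, where 6.89% of all genes rose). Slc16a12, a creatine carrier of this family, had the largest fall of all members. It read 9.25 and 10.62 untreated and 8.42 and 8.80 treated in control vector cells, and 9.27 and 10.66 untreated and 8.35 and 8.61 treated in major satellite cells. The groups did not overlap, and number 2 lay higher on untreated arrays by more than 1. The fall was 1.32 ± 0.26 (2.50-fold, adjusted p = 0.00909, unpaired 0.549) and 1.49 ± 0.26 (2.80-fold, adjusted p = 0.0051, unpaired 0.433). Within number 1 the differences were -0.83 and -0.92, and within number 2 they were -1.82 and -2.05. The call was lost in a robust variance model with a level trend and in the paired test without the untreated or the treated array of number 2 of the line compared.

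Slc16a10, which carries aromatic amino acids, read 10.12 and 10.62 untreated and 9.46 and 9.40 treated in control vector cells, and 10.13 and 10.69 untreated and 9.40 and 9.23 treated in major satellite cells. The treated arrays were all below the untreated ones. It fell by 0.94 ± 0.17 (adjusted p = 0.00599, unpaired 0.172) and 1.09 ± 0.17 (adjusted p = 0.00291, unpaired 0.116). Slc16a1, the widely expressed lactate carrier, read 11.95 and 12.05 untreated and 11.62 and 11.47 treated in control vector cells, and 12.03 and 11.97 untreated and 11.61 and 11.42 treated in major satellite cells, again with no overlap. It fell by 0.45 ± 0.10 (adjusted p = 0.012, unpaired 0.212) and 0.48 ± 0.10 (adjusted p = 0.00884, unpaired 0.181). Slc16a3, the carrier through which glycolytic cells export lactate, read between 7.77 and 7.92 on the 8 arrays. That is below the median level of all genes (8.19). Its groups overlapped, and it differed by 0.07 (95% interval -0.13 to 0.26, adjusted p = 0.721) and 0.06 (-0.14 to 0.25, adjusted p = 0.712). Slc16a6 fell by 0.55 ± 0.13 and 0.59 ± 0.13 (unpaired adjusted p = 0.801 and 0.69). Slc16a14 rose by 0.54 ± 0.15 in major satellite cells (adjusted p = 0.0381, unpaired 0.38) and differed by 0.23 in control vector cells (adjusted p = 0.4).

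Slc6a8, the sodium-coupled creatine carrier, rose in both lines and in both tests. It read 11.72 and 11.77 untreated and 12.65 and 12.75 treated in control vector cells, and 11.52 and 11.64 untreated and 12.50 and 12.57 treated in major satellite cells. The arrays of a group differed by 0.12 at most, and the groups stood apart by more than 0.8. The rise was 0.96 ± 0.08 (adjusted p = 0.000113, unpaired 0.0192) and 0.95 ± 0.08 (adjusted p = 0.00013, unpaired 0.0243), 1.94-fold in each line, and it was kept whichever array was left out. The creatine carriers Slc6a8 and Slc16a12 thus moved in opposite directions. Of the other 10 neurotransmitter and osmolyte carriers of the Slc6 family, Slc6a9 passed and 9 did not, Slc6a6, the taurine carrier, among them at -0.11 and -0.22 (adjusted p = 0.557 and 0.15).

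Among the 11 facilitative hexose carriers, 2 rose and 1 fell in each line. These are small counts beside the 6.92% and 6.89% of all genes that rose and the 7.63% and 8.38% that fell, and the single fall is near that background. Slc2a1, the widely expressed glucose carrier, read 12.31 and 11.92 untreated and 12.47 and 12.32 treated in control vector cells, and 12.18 and 11.91 untreated and 12.46 and 12.32 treated in major satellite cells. Treated arrays were above untreated arrays in both lines, narrowly in control vector cells. The difference was 0.28 ± 0.09 in control vector cells, the first member outside the threshold (adjusted p = 0.0846), and the rise was 0.34 ± 0.09 in major satellite cells (adjusted p = 0.0384, unpaired 0.674). Centring each array on its median ended the latter call. Slc2a5, the fructose carrier, rose by 0.51 ± 0.09 (adjusted p = 0.00399, unpaired 0.442) and 0.48 ± 0.09 (adjusted p = 0.00572, unpaired 0.492). Slc2a4, the insulin-responsive glucose carrier of muscle and fat, rose by 0.32 ± 0.09 in control vector cells, the last member inside the threshold (adjusted p = 0.0453, unpaired 0.862). Slc2a2, the glucose carrier of liver and beta cells, fell by 0.65 ± 0.10 in control vector cells (adjusted p = 0.00227, unpaired 0.14) and differed by -0.33 ± 0.10 in major satellite cells, just outside the threshold (adjusted p = 0.0521). Slc2a9, a urate carrier, fell by 0.34 ± 0.10 in major satellite cells (adjusted p = 0.0473, unpaired 0.559), just inside it, and not when the arrays were quantile normalized.

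Of the 13 Slc5 members, 2 fell in both lines (15.4%, where 7.63% and 8.38% of all genes fell) and 11 did not pass. Slc5a3, the sodium-coupled inositol carrier used in osmotic adaptation, read 10.67 and 11.74 untreated and 9.75 and 11.02 treated in control vector cells, and 10.82 and 11.72 untreated and 9.99 and 10.86 treated in major satellite cells. Number 2 was about 1 higher throughout, so that the groups overlapped, while the fall within each number was 0.72 to 0.92. Slc5a3 fell by 0.82 ± 0.11 (adjusted p = 0.00114, unpaired 0.961) and 0.85 ± 0.11 (adjusted p = 0.000973, unpaired 0.845). Its gene overlaps Mrps6 in the annotation. Other members named with values also overlap a named gene, Slc7a7 (Oxa1l), Slc5a6 (Atraid), Slc16a6 (Arsg), Slc6a9 (Ccdc24) and Slc3a1 (Prepl), and since probe positions were not used here their signals are uncertain to that extent. Slc5a6, the carrier of biotin and pantothenate, fell by 0.41 ± 0.08 and 0.38 ± 0.08 (unpaired adjusted p = 0.85 and 0.823). The 6 sodium-coupled sugar carriers, known from gut and kidney, did not pass, with differences from -0.09 to 0.11 and from -0.01 to 0.21. The 3 Slc43 carriers did not pass in either line.

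**Figure D3:**
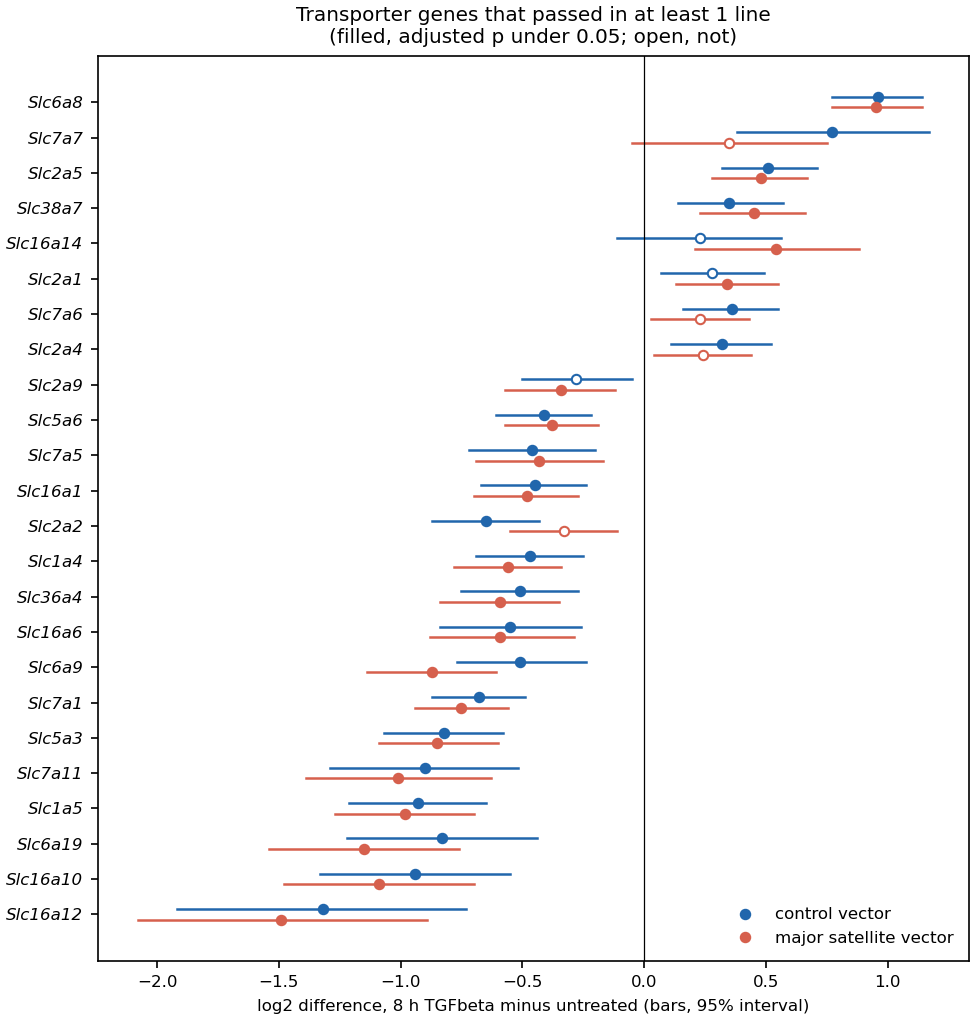
Log2 difference between 8 h of TGFbeta and untreated, with its 95% interval, for the 24 carrier genes that passed in at least 1 line (blue, control vector; red, major satellite vector; filled points passed, open points did not). The 16 genes from Slc2a9 downwards lie left of 0 in both lines, from Slc2a9 (-0.28 and -0.34) to Slc16a12 (-1.32 and -1.49), and the intervals of the lines overlap for every gene shown.

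Most of these calls rest on few arrays. When each of the 8 arrays was left out in turn, 5 of the 21 calls in control vector cells (Slc1a5, Slc2a2, Slc5a3, Slc6a8 and Slc7a1) and 7 of the 20 in major satellite cells (Slc1a5, Slc5a3, Slc6a8, Slc6a9, Slc6a19, Slc7a1 and Slc16a10) were kept every time. The other 16 and 13 were lost at least once. The fewest were kept by Slc2a4 (2 of 8 omissions) in control vector cells and by Slc2a9 (1 of 8) in major satellite cells. None of the called members changed sign under any such omission.

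The 79 members that passed in neither line held 66 of the 71 dimmer members. Their differences ran from -0.32 (Slc3a1) to 0.28 (Slc16a9) in control vector cells and from -0.44 (Slc3a1) to 0.31 (Slc43a2) in major satellite cells. The 95% interval of a member reached 0.21 to either side at the median and 0.59 at the widest (Slc16a12). For 3 genes with a pair of probesets (Slc16a9, Slc38a1 and Slc38a9) the dimmer probeset stayed within 0.33 of 0, with the same sign as the one used. The sizes differed for Slc38a9, whose dimmer probeset read -0.15 in control vector and -0.09 in major satellite cells. The one used read -0.01 and -0.36.

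The second question was whether the satellite vector changed the level of carriers. No member passed in the paired limma test, untreated or with TGFbeta. At an unadjusted p under 0.05 there were 4 of 103 members untreated and 5 with TGFbeta in the paired test. Of all 19937 genes, 654 and 1298 were under it. The unpaired test had 0 and 0 members there, and 86 and 85 of all genes. At an adjusted p under 0.05 the background was 0.0301% of genes (6 of 19937) in each paired test and 0.00502% (1 gene) in each unpaired test. The unpaired test called 0 members too. Differences between vectors ran from -0.25 to 0.36 untreated and from -0.31 to 0.25 with TGFbeta, with medians of 0.00 and 0.02. The largest untreated difference was that of Slc6a19, 0.36 ± 0.17 (95% interval -0.03 to 0.75, adjusted p = 1), and the largest with TGFbeta that of Slc7a11, -0.31 ± 0.17 (-0.69 to 0.07, adjusted p = 0.76). Slc7a11 differed by -0.60 within number 1 and -0.01 within number 2 there. Slc6a8 was lower by 0.16 in major satellite cells at both times, with intervals from -0.34 to 0.02 and from -0.35 to 0.02. Averaged over both times, no member passed, and 0.0853% of all genes did (0.01% unpaired). At an unadjusted p under 0.05 this paired average had 6 members and 1071 of 19937 genes. These comparisons use the same untreated and treated arrays as the TGFbeta comparisons.

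The third comparison was the difference between the TGFbeta responses of the lines. No member passed and 0% of all genes did, in the paired and in the unpaired limma test. In the paired test 4 members had an unadjusted p under 0.05 (Slc2a6, Slc2a12, Slc38a9 and Slc2a2), as did 658 of 19937 genes. In the unpaired test 0 members and 44 of all genes did. Among the 24 members that passed in a line, the response in major satellite cells minus that in control vector cells ran from -0.43 (Slc7a7) to 0.32 (Slc2a2, 95% interval 0.01 to 0.63, adjusted p = 0.999). Slc7a7, Slc7a6, Slc2a4, Slc2a2, Slc2a1, Slc2a9 and Slc16a14, which passed in 1 line only, were thus not shown to respond differently. The interval of this difference was widest for Slc16a12, 0.84 to either side.

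**Figure D4:**
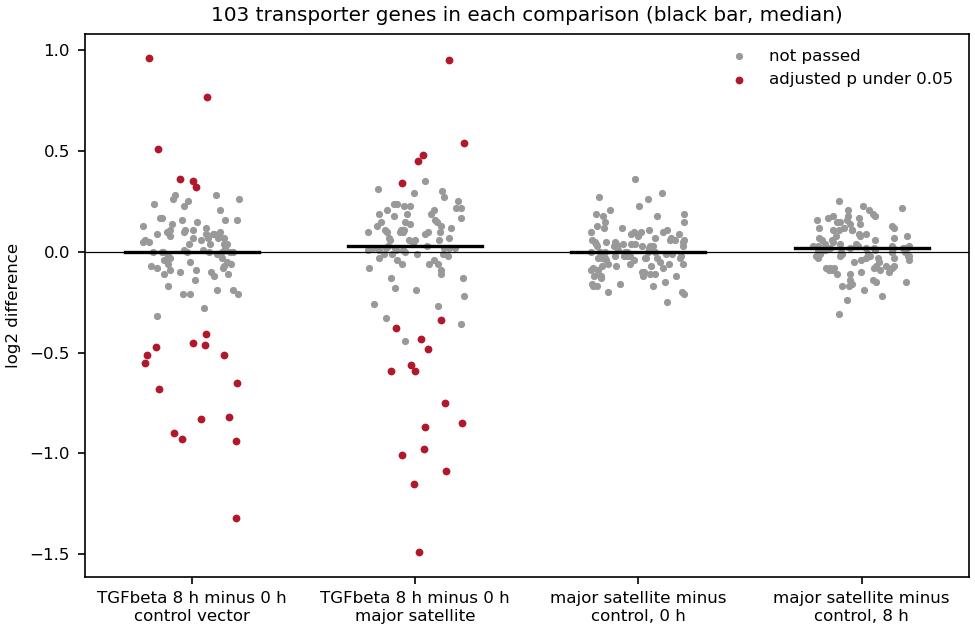
Log2 differences of the 103 carrier genes (1 point each, spread sideways at random) in the TGFbeta comparison of each line and in the comparison of the vectors at each time, with genes at an adjusted p under 0.05 in red and the median as a black bar. TGFbeta differences reach from -1.49 to 0.96, whereas differences between vectors stay between -0.31 and 0.36 and no gene passed there.

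The pathways that the carriers feed were described with lists of other genes, whose counts stand beside 6.92% of all genes rising and 7.63% falling in control vector cells and 6.89% and 8.38% in major satellite cells. In control vector cells, 3 of 21 amino acid response and serine synthesis genes rose (14.3%) and 7 fell (33.3%), with a median change of -0.28 where that of all genes was 0.01. In major satellite cells 3 rose (14.3%) and 9 fell (42.9%), with a median of -0.21 where that of all genes was 0.03. Unpaired, 1 rose and 1 fell, and 1 rose and 0 fell. Ddit4, an inhibitor of mTORC1, rose by 1.71 ± 0.13 (adjusted p = 6.82e-05) and 1.67 ± 0.13 (8.26e-05), and the stress protein gene Nupr1 by 1.35 ± 0.11 (0.000101) and 1.31 ± 0.11 (0.00013). Cth, which makes cysteine from cystathionine, fell by 1.54 ± 0.18 (0.000621) and 1.21 ± 0.18 (0.00231), and the serine synthesis gene Psat1 by 0.69 ± 0.09 and 0.53 ± 0.09. Gpt2, an alanine aminotransferase, fell by 0.66 ± 0.11 and 0.72 ± 0.11. Of these, Ddit4 also passed unpaired in both lines (adjusted p = 0.0222 and 0.0271) and Cth in control vector cells (0.0461). Of 12 genes of tRNA charging and export, 1 fell in each line, Wars (-0.40) in control vector and Xpot (-0.50) in major satellite cells, which at 8.33% is near the background, and 0 passed unpaired.

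Of 11 glutamine and glutathione genes, 1 rose (9.09%) and 3 fell (27.3%) in control vector cells and 1 rose and 2 fell (18.2%) in major satellite cells, beside the same shares of all genes (6.92% and 7.63%, 6.89% and 8.38%), and 0 passed unpaired. Gclc, the catalytic subunit of the first enzyme of glutathione synthesis, fell by 1.23 ± 0.11 (adjusted p = 0.000127) and 1.36 ± 0.11 (8.16e-05), and its modifier subunit gene Gclm rose by 0.34 ± 0.09 and 0.36 ± 0.09. Gss, which completes glutathione, fell by 0.48 ± 0.13 in control vector cells. Glul, glutamine synthetase, fell by 1.09 ± 0.10 and 1.08 ± 0.10, beside the fall of the glutamine carrier gene Slc1a5. Of 21 genes of amino acid sensing to mTORC1, 1 rose in each line (4.76%) and 1 and 2 fell (4.76% and 9.52%), shares near the background. The riser was the arginine sensor gene Castor1 (1.46 ± 0.13 and 1.21 ± 0.13). Rragb, a Rag GTPase, fell by 1.48 ± 0.18 and 1.30 ± 0.18, and Sesn3 fell by 0.39 ± 0.11 in major satellite cells. In that list, too, 0 passed unpaired.

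Glycolysis genes had 3 rises and 1 fall among 18 in control vector cells, and 4 rises and 1 fall in major satellite cells (unpaired 2 and 1 rises, 0 falls). The rises were 16.7% and 22.2% of the list, beside 6.92% and 6.89% of all genes, and the falls 5.56%, beside 7.63% and 8.38%. The other 14 and 13 genes did not pass. The median change of the list was -0.10 and -0.01, where that of all genes was 0.01 and 0.03. Pfkfb4 rose by 2.02 ± 0.12 and 2.18 ± 0.12 and Pfkfb3 by 1.15 ± 0.13 and 0.92 ± 0.13, both regulators of phosphofructokinase, whereas the subunit gene Pfkm fell by 0.37 ± 0.10 and 0.41 ± 0.10. Hk2, the hexokinase that traps glucose after uptake, rose by 1.02 ± 0.13 (adjusted p = 0.00101, unpaired 0.835) and 1.19 ± 0.13 (adjusted p = 0.000476, unpaired 0.664). Of 14 partners and regulators of carriers, 1 rose (7.14%) and 2 fell (14.3%) in each line. Sgk1, a kinase that raises the surface level of many carriers, rose by 1.19 ± 0.10 in each line (adjusted p = 0.00011 and 0.000124, unpaired 0.0151 and 0.019). Nedd4l, the ubiquitin ligase that removes them, fell by 1.27 ± 0.17 and 1.50 ± 0.17 (adjusted p = 0.00137 and 0.00058, unpaired 0.0548 and 0.0372), and the related kinase gene Sgk3 by 1.01 ± 0.12 and 0.86 ± 0.12. No gene of these 6 lists passed between the vectors at either time in the paired test.

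Marker lists of other cell types were followed beside these results. The mean log2 level of the 11 fibroblast markers ran from 6.57 to 6.96 over the 8 arrays, and its group means were 6.71 untreated and 6.86 treated in control vector cells and 6.70 and 6.91 in major satellite cells. Of them 2 rose in control vector cells (Pdgfra, 0.63, and Col1a1, 0.39) and 3 in major satellite cells (Pdgfra, 0.70, Col1a1, 0.55, and Pdgfrb, 0.33). These are 18.2% and 27.3% of the list, where 6.92% and 6.89% of all genes rose and 7.63% and 8.38% fell. Of the 8 endothelial markers, Cdh5 rose by 0.32 in control vector cells (12.5% of the list). Of the 10 basal markers 1 rose and 1 fell in each line (10% each way), which is near the background. Unpaired, 0 fibroblast, endothelial or basal markers passed in either line, where 1.07% and 1.09% of all genes did. Of the 9 immune and 5 adipocyte markers 0 passed in either line in limma. At an unadjusted p under 0.05 were 1 and 2 immune and 0 and 0 adipocyte markers (0 of each unpaired). Of all 19937 genes, 5057 and 5696 were under it in the paired test. The epithelial markers had a mean of 10.02 and 10.25 in control vector and 10.03 and 10.23 in major satellite cells (0 h and 8 h), with rises of Cldn4 (2.26 and 2.25) and Krt7 (0.86 and 0.77) and falls of Krt19 (-0.76 and -0.72) and, in major satellite cells, Ocln (-0.47). That is 13.3% of the list rising in each line and 6.67% and 13.3% falling. Unpaired, 1 epithelial marker rose in each line and 0 fell. The part of these shifts in the carriers' changes was not tested. In such bulk RNA, fewer cells of a type and less RNA per cell cannot be told apart.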

How the data were processed

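The authors deposited log2 expression, 1 value per probeset, for 8 Affymetrix arrays. The submitters' processing notes list RMA and limma without versions, roles or a genome build. Of 34760 probesets, 21640 had 1 gene symbol in the platform's probe table, 1321 had several and 11799 were not listed; those with 1 symbol were used. Symbols were updated by Entrez identifier with RefSeq (GRCm38.p6). Where a gene had several probesets (954 genes), the one with the highest mean was kept, which left 19937 genes.

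Each of 7 comparisons was a two-sided contrast in limma (version 3.58.1, R version 4.3.3; moderated by eBayes) with 1 mean per group over all 8 arrays. The model also held the replicate number (3 residual degrees of freedom), since the arrays were paired by the code in their titles, whose meaning the labels do not state; the model without it (4 degrees of freedom) is the unpaired test and made far fewer calls. Pairing was checked by the correlation of deviations from group means (0.758 to 0.874). The fit was run on simulated data built with such replicate offsets, which cannot show whether the replicate number belongs in the model. The number of arrays limits the precision.

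Values on all arrays were given for members passing with at least a 2-fold change under TGFbeta or passing between vectors, and for 8 widely expressed carriers whatever their p (Slc1a5, Slc2a1, Slc3a2, Slc7a5, Slc7a11, Slc16a1, Slc16a3 and Slc38a2). Other passing members were named with their difference. Slc5a3, Slc6a8 and Slc7a1 were given on all arrays, and Slc6a6 and Slc38a9 were named, after values were seen. In the pathway lists, passing genes were named by smallest p, at most 4 in each list and comparison. The members and lists were chosen with earlier results of these data known. Alternatives were the model without the replicate number, array centring, quantile normalization, the mean of a gene's probesets, a filter on level, fits on 2 groups, a robust variance trend and each array left out.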

Additional observations from a re-analysis of the deposited data

How the results depend on the processing

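Without the replicate block, that is, with the pairing by replicate number ignored, the number of carriers that passed was 1 in control vector cells, 1 in major satellite cells and 6 in their average, against 21, 20 and 29 with it. The values of the differences are the same in both fits, and no called member changed sign. Leaving out 1 array gave 7 to 21 passing carriers in control vector cells, 8 to 20 in major satellite cells and 22 to 32 in the average. Centring on array medians, quantile normalization, the mean of a gene's probesets, the filter on level, the trended variance and the fit on 2 groups gave 18 to 21, 14 to 21 and, without the last, 23 to 32. The counts between vectors and for the difference between responses were 0 under each of these settings. In the average of the lines the unpaired calls were Slc6a8, Slc16a1, Slc16a10, Slc6a19, Slc6a9 and Slc7a1. With 2 arrays a group, small differences were not detectable, since a member's 95% interval reached 0.21 to either side at the median.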

Other observations

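Creatine genes other than the carriers were looked at after the values of Slc6a8 and Slc16a12 had been seen. Ckmt1, a mitochondrial creatine kinase, fell by 0.75 ± 0.12 in control vector cells (adjusted p = 0.00306, unpaired 0.0846) and by 0.71 ± 0.12 in major satellite cells (adjusted p = 0.00395, unpaired 0.0997). Gamt, which completes creatine synthesis, fell by 0.39 ± 0.11 in control vector cells (adjusted p = 0.0406, unpaired 0.5) and differed by -0.35 ± 0.11 in major satellite cells (adjusted p = 0.06). Ckb, the cytosolic creatine kinase of brain and epithelia, rose by 0.46 ± 0.11 in control vector cells (adjusted p = 0.0203, unpaired 0.813) and differed by 0.18 ± 0.11 in major satellite cells (adjusted p = 0.327). Gatm, the first enzyme of creatine synthesis, differed by 0.02 ± 0.09 and 0.10 ± 0.09 (adjusted p = 0.942 and 0.489), and Ckm and Ckmt2, the muscle forms of creatine kinase, did not pass in either line.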
